A study of Mus musculus with 3 samples.

Results

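The SETD2 ChIP list is the set of 186 regions that the authors' peak caller returned for 1 ChIP library made with an antibody to SETD2, set against 1 input DNA library. All 186 regions were taken, of 1992 in the series, whose other 1806 regions belong to an H3K36me3 ChIP called against the same input. Each of the 3 libraries is a single sample of intestinal cells from C57BL/6 mice of 6 weeks with the genotype setd2f/f. This genotype is a pair of floxed Setd2 alleles, shared by all 3 libraries, and the labels name no Cre driver, how many animals were pooled or which cells of the intestine were taken. No library without SETD2 was analysed here, so the list shows where signal under this antibody passed the caller's threshold over input and holds no measure of how specific that signal is. A peak list cannot be checked against marker genes of the tissue. Beside its position, each region carries a score from the caller. It has no stated scale and was used only to rank regions within the list.

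SETD2 is the histone methyltransferase that adds the third methyl group to lysine 36 of histone H3. It travels with the elongating form of RNA polymerase II, to which it binds directly, and its mark is therefore known from the bodies of transcribed genes rather than from their start sites. Readers of the mark include DNA methyltransferases, chromatin complexes that suppress initiation within genes, and proteins of DNA repair and splicing.

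Of the 186 SETD2 peaks, 2 overlapped the promoter window of a gene, defined as the 250 bases before to 50 bases after a start site. Both windows are shown because they are the only start regions, among those analysed here, that the list meets. The first belongs to Gm32946, a long non-coding RNA gene, and lies at chr11:70077421-70077720 on the plus strand. Its start site at 70077671 was itself inside the peak (70077627 to 70078251, score 40.8). The second belongs to Hao2, a gene of a peroxisomal hydroxy acid oxidase, at chr3:98893181-98893480 on the minus strand. Only the far upstream end of that window was reached by the peak (98893469 to 98894423, score 30.4), which lies inside the RefSeq span of Hao2 all the same, since the gene's span begins upstream of this start site. Sequences are from RefSeq, build GRCm38.p6, printed 5′ to 3′ with the bases under the peak in capitals. The whole window of 300 bases is given for Gm32946, and the 250 bases before the start site for Hao2.
Gm32946: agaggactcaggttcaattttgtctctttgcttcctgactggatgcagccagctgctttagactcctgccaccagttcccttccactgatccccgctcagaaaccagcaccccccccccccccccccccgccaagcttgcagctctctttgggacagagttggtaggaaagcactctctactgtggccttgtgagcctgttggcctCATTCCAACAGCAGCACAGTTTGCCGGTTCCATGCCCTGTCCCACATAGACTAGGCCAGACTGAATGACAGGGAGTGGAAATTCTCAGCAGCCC
Hao2: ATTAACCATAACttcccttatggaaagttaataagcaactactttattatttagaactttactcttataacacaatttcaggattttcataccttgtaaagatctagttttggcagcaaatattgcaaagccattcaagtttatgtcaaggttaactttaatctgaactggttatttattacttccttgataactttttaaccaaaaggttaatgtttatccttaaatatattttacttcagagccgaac
Under the peak lay 94 bases of the Gm32946 window and 12 bases of the Hao2 window. The GC content of the whole windows was 56.7% and 32.3%, against a median of 52.7% (quartiles 45.7% and 61.7%) over 32851 promoter windows of the same length. They held 3 and 2 CG dinucleotides, where the median window held 7 (quartiles 3 and 20). The motif of the TATA box, TATAAA, was found in neither window and in 13.6% of all. That of the CCAAT box, spelled as its name, was in neither and in 37.4% of all. The GC box, GGGCGG, was in neither and in 35.7% of all. Each was searched on both strands. The letters of the other 184 peaks are not analysed here.

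In all, 62 SETD2 peaks (33.3%, 95% exact Clopper-Pearson interval 26.6 to 40.6) touched a protein-coding gene by at least 1 bp. Another 18 (9.68%, 5.84 to 14.9) touched a long non-coding RNA gene and no protein-coding gene, and 4 (2.15%, 0.589 to 5.41) touched a pseudogene alone. The remaining 102 peaks (54.8%, 47.4 to 62.1) touched no annotated gene. Genes of all other biotypes, such as those of snRNAs, snoRNAs, tRNAs and microRNAs, were touched by 0 of 186 peaks. This count allows a share of up to 1.61% by the limit of 3 counts and up to 1.96% by the exact interval. There are 4855 such genes with a position, and what share of the sequence they span was not computed. The nearest microRNA hairpin, Mir301, lay 11.8 kb from a peak. Protein-coding genes together span 38.7% of the sequence between the outermost genes of the chromosomes, and genes of any kind 46.7%. The shares of peaks that touched them, 33.3% for protein-coding genes and 45.2% (37.9 to 52.6) for any gene, had intervals that include those values. In the H3K36me3 list 57.3% of peaks (54.9 to 59.5) touched a protein-coding gene and 34.9% (32.7 to 37.2) touched none of any kind. The intervals of the lists do not overlap in either share. They cover counting error alone and treat peaks as independent, and with 1 library per antibody there is no replicate against which to test the difference.

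The share showed no order by score. In the highest quartile of scores 16 of 47 peaks (34.0%, 20.9 to 49.3) touched a protein-coding gene, in the next 13 of 46 (28.3%, 16.0 to 43.5), then 15 of 46 (32.6%, 19.5 to 48.0), and in the lowest 18 of 47 (38.3%, 24.5 to 53.6). All 4 intervals overlap. Peaks that touched no gene made up 46.8% of the highest quartile (32.1 to 61.9) and 53.2% of the lowest (38.1 to 67.9).

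**Figure D1:**
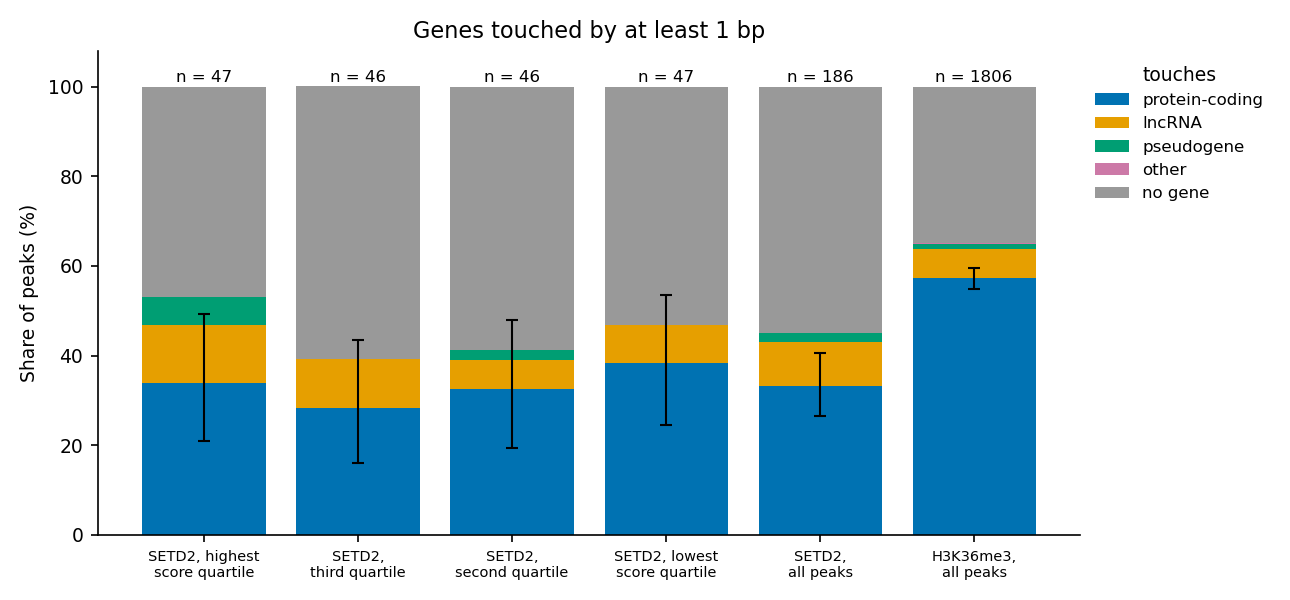
Share of peaks (%) that touched each kind of gene by at least 1 bp, for the SETD2 list by quartile of score, for all 186 SETD2 peaks and for all 1806 H3K36me3 peaks. A peak that touched several kinds counts under the first in the order of the legend; bars on the protein-coding share are exact 95% intervals, which overlap among the SETD2 quartiles, while that of all SETD2 peaks (26.6 to 40.6%) lies below that of the H3K36me3 peaks (54.9 to 59.5%).

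SETD2 peaks touched 64 protein-coding genes, 0.294% of 21779 with a position. Each held 1 peak. A total of 61 peaks lay wholly inside a protein-coding gene, 2 peaks touched a pair of genes each, and 4 touched a non-coding gene as well. The touched genes were long, with a median span of 97.3 kb (quartiles 47.4 and 218 kb) against 17.2 kb for all protein-coding genes and 63.9 kb for the 983 touched by an H3K36me3 peak (4.51% of all). The H3K36me3 list, with 1806 peaks against 186, touched 69 of the 7860 genes under 10 kb. SETD2 peaks touched none of these genes, whose spans sum to only 32.4 Mb. Of genes of 10 to 50 kb 18 were touched (0.200%), of those of 50 to 200 kb 29 (0.735%), and of those of 200 kb or more 17 (1.72%). Per 100 Mb of summed gene span these are 8.25, 7.75 and 4.01 touched genes, so per unit of length the longest class held fewer than either of the other classes with a touched gene, and genes under 10 kb held 0. The classes overlap where genes do, and no test was run on them.

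The highest scores within genes were those of Lama1 and Flt1. Lama1 encodes the α1 chain of laminin, a component of basement membranes, and held a peak of 803 bp with a score of 441 (chr17:67741123-67741925). Flt1 encodes a receptor for vascular endothelial growth factors, and its peak of 858 bp scored 421 (chr5:147610992-147611849). Col4a6, a type IV collagen chain of basement membranes, held a peak of 701 bp with a score of 75.8 (chrX:141276140-141276840). The sarcoglycan gene Sgcd, whose product belongs to the dystrophin complex of muscle, held one of 667 bp that scored 33.6. Of 17 laminin and type IV collagen chain genes, Lama1 and Col4a6 were touched, or 11.8%, beside 0.294% of all protein-coding genes. This list was written with the Lama1 and Col4a6 peaks already known, its genes are long (median span 125.5 kb), and the count is given as a description. The other receptors and ligands had low scores: 38.9 in the lipoprotein receptor family gene Lrp1b, 33.6 in Ror2, a receptor for Wnt5a, 31.9 in the neuregulin gene Nrg2, 30.9 in the BMP receptor gene Bmpr1b and 30.3 in Ulbp1, a ligand of the NKG2D receptor of natural killer cells.

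Genes of the cytoskeleton and of cilia held 7 peaks, led by Ppp1r9a and Ttc21b. Ppp1r9a encodes neurabin, an actin-binding partner of protein phosphatase 1, and its peak of 1049 bp scored 289 (chr6:4923555-4924603). Ttc21b encodes a subunit of the complex that carries cargo back along the cilium, and its peak of 1053 bp scored 222 (chr2:66188872-66189924). The others, from 39.6 down to 30.3, were Fgd4, an activator of the GTPase Cdc42, the kinase gene Rock1, Mtss1, the microtubule-binding gene Clasp2 and the centrosomal gene Cep85. Among 6 genes of membrane traffic, Dop1b stood highest with a peak of only 471 bp that scored 233 (chr16:93789064-93789534). Rabgap1l, a GTPase-activating protein for Rab proteins, followed with 53.6 and Itsn1, a scaffold of endocytosis, with 41.2. Scamp1, Erc1 and Wdr11 lay between 30.2 and 33.3.

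Channels and transporters came to 3 genes. Slc14a2 encodes a urea transporter known from the kidney, and its peak of 776 bp scored 111 (chr18:78197919-78198694). It was the single touched gene among 389 solute carrier genes, a share of 0.257%, close to the 0.294% of all protein-coding genes. The voltage-gated potassium channel genes Kcnh1 and Kcnh7 scored 59.5 (chr1:192453799-192454307, 509 bp) and 30.4 (chr2:62800073-62800473, 401 bp). They were the touched members among 134 potassium, sodium and calcium channel genes (1.49%), a list with a median span of 44.7 kb. A group of 6 metabolic and signalling enzymes, which leaves out enzymes placed elsewhere such as Rock1, Kmt2c and Mdm2, held Pxylp1, a phosphatase of proteoglycan synthesis (93.9), the monoacylglycerol lipase gene Abhd6 (77.4), the cyclic nucleotide phosphodiesterase genes Pde7b (63.1) and Pde1c (41.6), Hao2 (30.4) and Uggt2, a sensor of glycoprotein folding (30.4). The peak of Pxylp1 was 890 bp wide (chr9:96852753-96853642), that of Abhd6 562 bp (chr14:8005778-8006339) and that of Pde7b 761 bp (chr10:20459437-20460197).

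Chromatin genes held 5 peaks, with scores between 30.2 and 54.3 and widths between 472 and 643 bp. The highest was in Hira, the chaperone of histone H3.3 (chr16:18958290-18958932). It was followed by the polycomb gene Phc3 (36.1) and by Meaf6 (34.2) and Jade3 (32.0), whose products are subunits of histone acetyltransferase complexes. The last was Kmt2c, a methyltransferase of lysine 4 of histone H3 (30.2). Peaks in the DNA repair genes Fancc and Mlh3 scored 31.9 and 31.5. Tcf7l1, a transcription factor at the end of the Wnt pathway, scored 31.6 (chr6:72685668-72686432, 765 bp) and was the single touched gene among 39 of that pathway (2.56%, beside 0.294% of all protein-coding genes). That share rests on 1 gene, with a span of 162.7 kb against a median of 36.9 kb over the list. The transcription factor gene Mitf scored 30.5. The role groups were formed after the touched genes were seen, and they hold 47 of the 64 genes. How many genes of each role exist was not counted, so no share of a role can be set beside the 0.294% of all protein-coding genes. The other 17 include Wdr76 (85.7, chr2:121522147-121523061, 915 bp), the oestrogen-responsive gene Greb1 (56.4, chr12:16747443-16748361, 919 bp), Xkrx (47.5) and Mdm2, the ubiquitin ligase of p53 (34.7).

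Several groups that bear on SETD2 or on the tissue held no SETD2 peak. These were 27 writers, erasers and readers of H3K36 methylation, 24 genes of transcription elongation and 36 splicing factors. The peak nearest to Setd2 itself lay 1.26 Mb away. Also untouched were 31 absorptive enterocyte genes, 24 crypt stem and progenitor genes, 26 secretory cell genes and 20 immune cell genes, while of 22 stromal, muscle, endothelial and neural genes Flt1 was touched. With 0.294% of all protein-coding genes touched, 0 in a list of this size is near the background. Of 1461 olfactory and vomeronasal receptor genes, which are short (median span 0.951 kb), 0 were touched, and likewise 0 of 99 cytochrome P450 genes and 0 of 100 ribosomal protein genes. Lists of mostly long genes without a peak were 53 cadherins and protocadherins, 47 glutamate and GABA receptor genes and 38 genes of protein tyrosine phosphatases. Of 1321 predicted protein-coding genes with Gm symbols 4 were touched (0.303%): Gm2808, Gm32584, Gm42346 and Gm8104.

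Within genes, SETD2 peaks were found near both ends and between them, with 0 between 30 and 40% of the span. A strand was at hand for 55 of the 64 peak and gene pairs with the peak's midpoint inside the gene. Counted from the 5′ end of the gene, 16 midpoints lay in the first 25% of the span, 9 between 25% and 50%, 15 between 50% and 75% and 15 in the rest. The median position was 57.7% of the span (95% interval 28.3 to 68.8), against 48.1% (43.3 to 52.0) for 827 pairs of the H3K36me3 list, and the intervals overlap. Near the 5′ end lay the peaks of Scamp1 (1.93% of the span), Itsn1 (3.89%), Bmpr1b (3.90%), Thnsl2 (4.69%), Abhd6 (5.88%), Hao2 (6.86%), Ppp1r9a (8.07%) and Ror2 (9.05%). These positions are along the RefSeq span, and the nearest start site at hand for the Bmpr1b peak lay 174 kb downstream of it, in the same gene. Near the 3′ end lay the peaks of Gm32584 (99.0%), Zfp984 (98.5%), Xkrx (96.5%), Mdm2 (94.6%), the kinase gene Cdk15 (93.8%), Erc1 (93.0%), Ttc21b (92.3%) and the F-box gene Fbxw14 (90.6%). The Gm32584 peak also lay at 68.8% of the overlapping gene D5Ertd579e and is counted with both genes. The Flt1 peak was at 69.8% of its gene. Exons and introns are not analysed here.

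**Figure D2:**
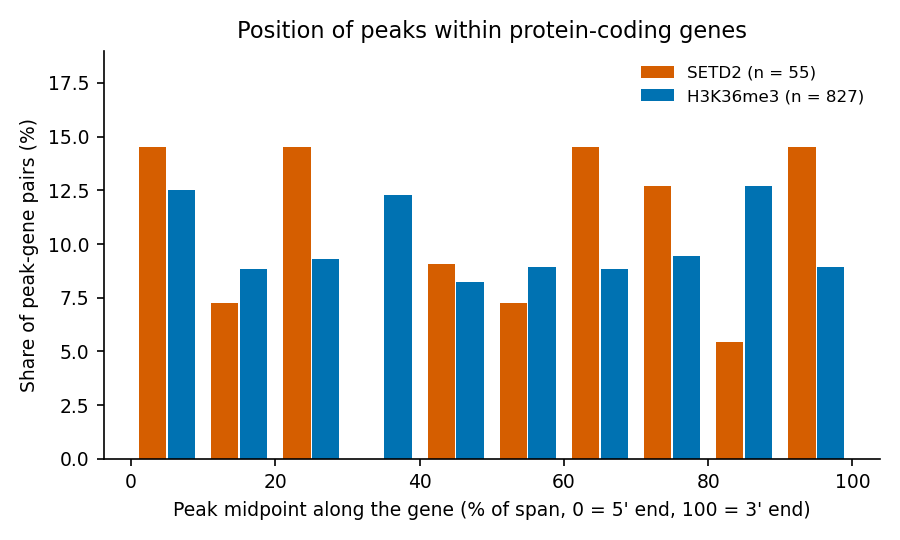
Share of peak and gene pairs (%) by position of the peak's midpoint along the protein-coding gene, in steps of 10% of the gene's span from the 5′ end (0) to the 3′ end (100), for 55 SETD2 and 827 H3K36me3 pairs. The SETD2 bars rest on 0 to 8 pairs each, with 8 pairs in the step next to either end of the gene and none between 30 and 40%.

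Start sites were at hand for 80.3% of protein-coding genes. Those on chromosome 18 are not analysed here. Over the 178 SETD2 peaks on other chromosomes, 1 peak covered a start site, the Gm32946 peak described above. Within 1 kb of a start site lay 6 peaks (3.37%, exact interval 1.25 to 7.19), against 5.05% (4.07 to 6.18) of 1743 H3K36me3 peaks. Beside Gm32946 and Hao2, these were the peaks of the non-coding genes LOC115490388 (199 bp from the start site) and Gm31195 (246 bp), of Thnsl2 (286 bp) and of Scamp1, a gene of secretory carrier membranes (675 bp). The Hao2 peak had its midpoint upstream of the start site and the 5 others downstream. Within 10 kb lay 31 peaks (17.4%, 12.2 to 23.8) against 28.4% (26.3 to 30.6) in the H3K36me3 list. The median distance to a start site was 40.6 kb, against 24.0 kb. The share of all sequence within these distances of a start site was not computed. It therefore cannot be said whether the SETD2 peaks lay near to start sites or far from them.

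Non-coding genes touched by a SETD2 peak numbered 26. They were 20 long non-coding RNA genes, 0.158% of 12639, and 6 pseudogenes, 0.0581% of 10330. No more than 1 peak was found in any of them. All but 1 of the 20 long non-coding RNA genes have only a provisional symbol. The exception was Snhg14, the long host transcript of snoRNAs in the imprinted region next to Snrpn, with a span of 1177 kb and a peak of 717 bp that scored 34.0 (chr7:59759665-59760381). The highest scores were those of Gm31055 (211, chr4:153152671-153153676, 1006 bp) and of G630055G22Rik (161, chr18:48009953-48011015, 1063 bp). Then came Gm30762 (83.6, chr9:115350484-115351356, 873 bp), 4930558G05Rik (67.6, chrX:129056090-129057116, 1027 bp), Gm39809 (57.2, chr2:48532513-48533191, 679 bp) and LOC115490388 (50.5). The touched long non-coding genes had a median span of 34.6 kb against 8.46 kb for all such genes. Touched genes per unit of length were not computed for this kind of gene, so these spans are a description. Of the pseudogenes, Gm19193 is only 0.73 kb long and shared 571 bp with a peak of 752 bp with a score of 96.8 (chr9:95425790-95426541). Gm20946 (53.1), LOC115489104 (50.1) and Gm6205 (33.9) were the others touched outside protein-coding genes, and Gm13153 and Gm13155 lie at peaks that also touched Rex2 and Zfp979.

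The 102 SETD2 peaks outside genes lay a median of 23.8 kb (95% interval 16.9 to 33.2 kb) from the nearest gene of any kind and 75.6 kb (47.9 to 125 kb) from the nearest protein-coding gene. For 36 of them the nearest gene was protein-coding, for 34 a pseudogene, for 22 a long non-coding RNA gene and for 10 a gene of a small RNA. By distance to any gene, 2 lay within 1 kb, 25 between 1 and 10 kb, 59 between 10 and 100 kb and 16 between 100 and 1000 kb. By distance to a protein-coding gene, 38 lay between 100 and 1000 kb and 7 farther than 1000 kb. H3K36me3 peaks outside genes lay closer to any gene, with a median of 12.9 kb (11 to 15.7 kb, 631 peaks). The intervals do not overlap, but they cover counting error alone and treat peaks as independent. With 1 library per antibody there is no replicate against which to test the difference. The nearest SETD2 peak was 0.050 kb from the pseudogene Gm6722 (chr12:83619769-83620158, score 30.5). The next were 0.338 kb from Gal3st3, a galactose sulfotransferase gene (chr19:5297638-5297993, score 31.2), and 1.06 kb from the pseudogene Gm13238 on chromosome 4. The farthest lay 393 kb from Gm22974 (chr5:80500744-80501123, score 42.6), 377 kb from Gm7272 (chr14:91577140-91577536) and 229 kb from Gm6975 (chr19:49479663-49480218).

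**Figure D3:**
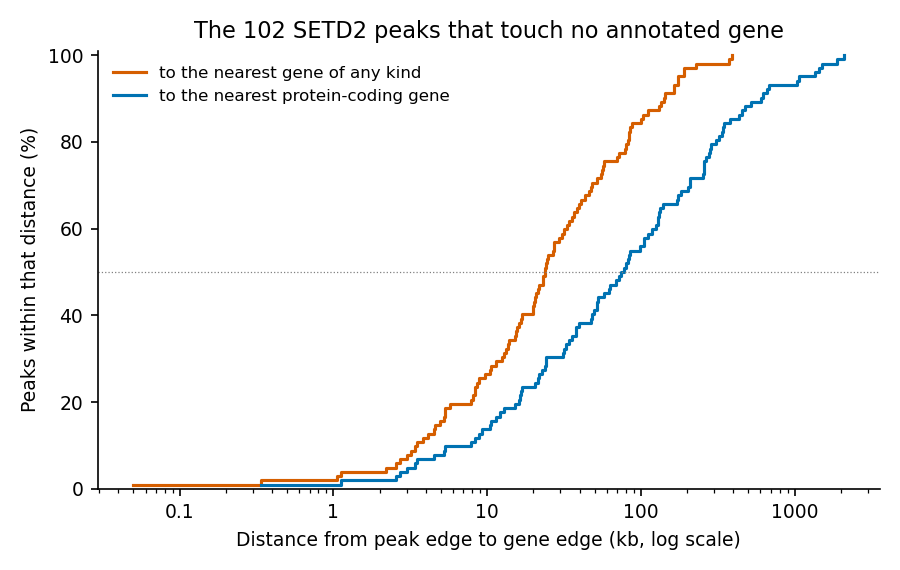
Cumulative share (%) of the 102 SETD2 peaks outside genes by the distance from the peak's edge to the nearest gene (kb, log scale), for genes of any kind and for protein-coding genes. The curves cross 50% at the medians of 23.8 and 75.6 kb.

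The highest scores of the list stood outside genes. The first, 1717, belonged to a peak of 987 bp on chromosome 8 (chr8:83756434-83757420), 4.60 kb from the non-coding gene Gm42030. The second, 1067 (chrX:170757859-170758657), was nearest to Asmt, which encodes the last enzyme of melatonin synthesis, at 79.8 kb. The third, 719 (chr12:93576760-93577600), was 132 kb from the non-coding gene 4930559C10Rik. Scores of 673 (chr2:92093177-92094159) and 609 (chr13:13860410-13861380) followed, 47.9 kb from Gm31473 and 15.6 kb from the pseudogene Gm7441. After the Lama1 and Flt1 peaks came regions on chromosome 14 (chr14:86198682-86199517, score 377, 4.97 kb from the pseudogene Gm49060) and chromosome 2 (chr2:57629351-57629874, score 355, 13.8 kb from Gm13533). The next was on chromosome 16 (chr16:30829417-30830077, score 306, 15.1 kb from the snRNA gene Gm26295). The single peak on chromosome Y scored 264 and was 370 bp wide (chrY:4036505-4036874, 15.4 kb from the pseudogene Vmn2r-ps140). A peak on chromosome 3 scored 197 (chr3:149052099-149053258), 23.1 kb from the snRNA gene Gm25127. Its nearest protein-coding gene was Adgrl2, a latrophilin gene, at 63.0 kb. Another on chromosome 14 scored 129 (chr14:69161874-69162603), 2.2 kb from the non-coding gene 1700092C10Rik. Its nearest protein-coding gene was the homeobox gene Nkx2-6, at 9.20 kb. Further regions outside genes, with scores from 52.8 to 98.1, had Kcnh8, Ikzf2, Plk2, Isl1, Rbfox1, Jam3 and Tbl1xr1 as nearest protein-coding genes, at 57.3 to 377 kb. All 19 peaks with a score of 100 or more had no other SETD2 peak within 1 Mb.

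Scores were spread unevenly over the list. The median was 35.5 (quartiles 31.6 and 47.5), and 88 of the 186 peaks (47.3%) scored under 35, where the lowest score was 30.01. The 19 peaks of 100 or more ran from Slc14a2 at 111 to 1717. Just below them stood a region on chromosome 17 (98.1) and Gm19193 (96.8). A total of 41 peaks shared their exact score with another. The most common value, 30.49, belonged to 7 peaks of 375 to 400 bp, among them those of Mitf, Erc1 and Fgf12.

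Median width was lowest in the lowest quartile of scores and highest in the highest. The median width was 552 bp (95% interval 535 to 698) in the lowest quartile of scores, 724 bp (672 to 767) in the second, 822 bp (678 to 922) in the third and 841 bp (761 to 919) in the highest. The interval of the highest quartile does not overlap that of the lowest, while those of the third and highest do overlap. Peaks of 100 or more had a median of 841 bp, and the 10 highest 839 bp, with a range of 524 to 987 bp. Across all 186 peaks Spearman's rank correlation of score and width was 0.39, and 0.40 over the 163 peaks outside runs. In the H3K36me3 list it was 0.07 over 1806 peaks. Score and width come from the same reads and the same caller, so this is a description of the list. The narrowest peaks were 356 bp near Gal3st3, 361 bp in the non-coding gene 4930554G24Rik (score 36.4) and 370 bp on chromosome Y. By class, the median width was 747 bp (640 to 836) in protein-coding genes, 627 bp (535 to 873) in long non-coding genes and 734 bp (693 to 778) outside genes, with overlapping intervals.

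**Figure D4:**
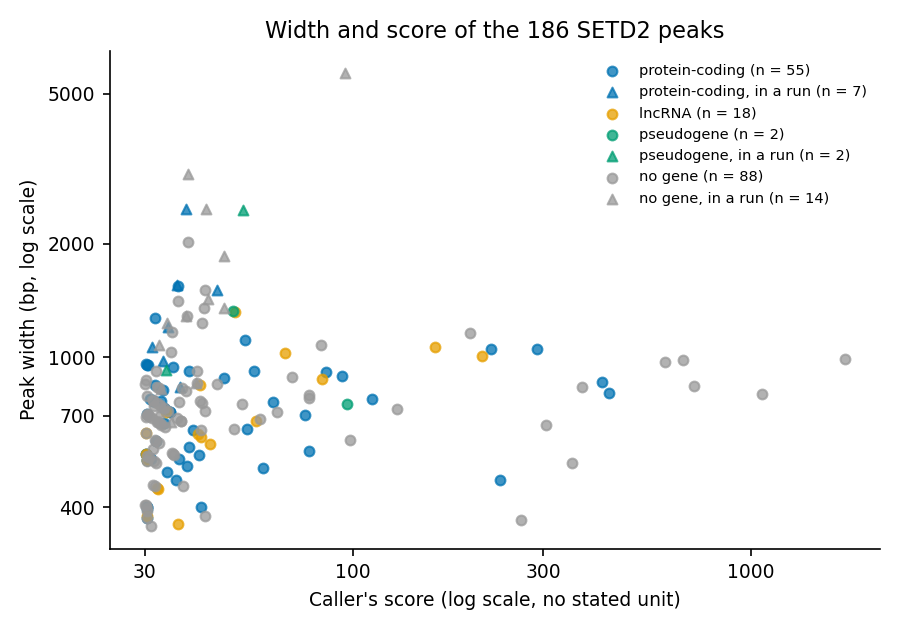
Width (bp, log scale) against the caller's score (log scale, no stated unit) for each of the 186 SETD2 peaks, coloured by the kind of gene touched, with triangles for peaks in runs of 3 or more. The highest scores sit between 524 and 987 bp, and the peaks wider than 2 kb all score under 100.

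The widest peaks were not the highest. The 6 peaks wider than 2 kb scored between 38.1 and 95.5, and 5 of them lay in runs, defined as 3 or more peaks with gaps of at most 1 Mb. There were 5 runs with 23 peaks (12.4%). The width of their peaks had a median of 1232 bp (924 to 1555), against 707 bp (674 to 752) for the 163 others, and scores of 31.4 to 95.5. Runs were defined with the clustered peaks already known, so these widths are a description.

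The run with the widest peaks lay on chromosome X, where 4 peaks stood within 87.1 kb in a stretch with no annotated gene (94882870 to 94969967). The widest of the whole list, 5668 bp, lay at chrX:94912340-94918007. From left to right the peaks were 1353, 3066, 5668 and 1429 bp wide and scored 47.4, 38.6, 95.5 and 43.2. The nearest protein-coding gene was Spin4, a member of a family of readers of histone methylation, 52.5 kb from the closest of them. No H3K36me3 peak fell in this run.

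Chromosome 4 held 2 runs inside an array of zinc finger genes, whose products are DNA-binding proteins. The larger held 6 peaks over 863 kb (146892974 to 147756089), scores 31.4 to 38.1, and each touched a protein-coding gene. From left to right these were Zfp993, Rex2, the overlapping genes Zfp978 and Zfp991, Zfp982, Zfp979 and Zfp984, with scores of 36.3, 34.3, 31.4, 36.8, 33.4 and 38.1 and widths of 1555, 1203, 1062, 836, 979 and 2471 bp. The stretch holds 10 protein-coding genes, of which 9 have Zfp symbols, and 22 pseudogenes. Of 397 genes with Zfp symbols 6 were touched (1.51%, beside 0.294% of all protein-coding genes), by 5 peaks, all in this run. The smaller run held 3 peaks over 390 kb (145446196 to 145836163) in a stretch with 14 pseudogenes, and its highest score was 45.5 in the predicted gene Gm42346 (chr4:145446196-145447706, 1511 bp). One peak of each run was 2471 bp wide, at Zfp984 and near Gm13238. The copies of such arrays resemble each other, and how reads were assigned among them is not given in the sources used here.

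The remaining runs lay on chromosomes 8 and 5. On chromosome 8, 6 peaks over 1147 kb (19801488 to 20948959) scored 32.7 to 53.1, in a stretch with 8 protein-coding genes and 15 pseudogenes. Of these peaks 5 touched no gene and 1 touched the pseudogene Gm20946 (chr8:20832925-20835382, 2458 bp). On chromosome 5, 4 peaks over 553 kb (94252787 to 94805686) scored 32.6 to 40.4 among genes of the Pramel family, and 1 of them touched the pseudogene Gm6205.

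Among whole chromosomes, density ran from 0.110 SETD2 peaks per 10 Mb on Y to 1.26 on chromosome 16, with 0.699 over all. Chromosomes 13 (1.11), 14 (1.07) and 4 (1.04) followed 16, and 15 (0.297), 19 (0.343) and 7 (0.352) were lowest among the autosomes. On chromosome 4, 9 of 16 peaks belonged to runs, and on chromosome 8, 6 of 11. Chromosome 16 had 12 peaks, none in a run. Chromosome X had 14 peaks (0.835 per 10 Mb), while its H3K36me3 density of 3.34 was below the 6.79 of all chromosomes. None of the 11 SETD2 peaks on chromosome 8 touched a protein-coding gene, beside 33.3% of all 186 SETD2 peaks. Such genes span 40.7% of that chromosome, and 6 of the 11 peaks belonged to 1 run. Chromosomes 19 and Y, with 2 peaks and 1 peak, also had 0 in protein-coding genes.

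**Figure D5:**
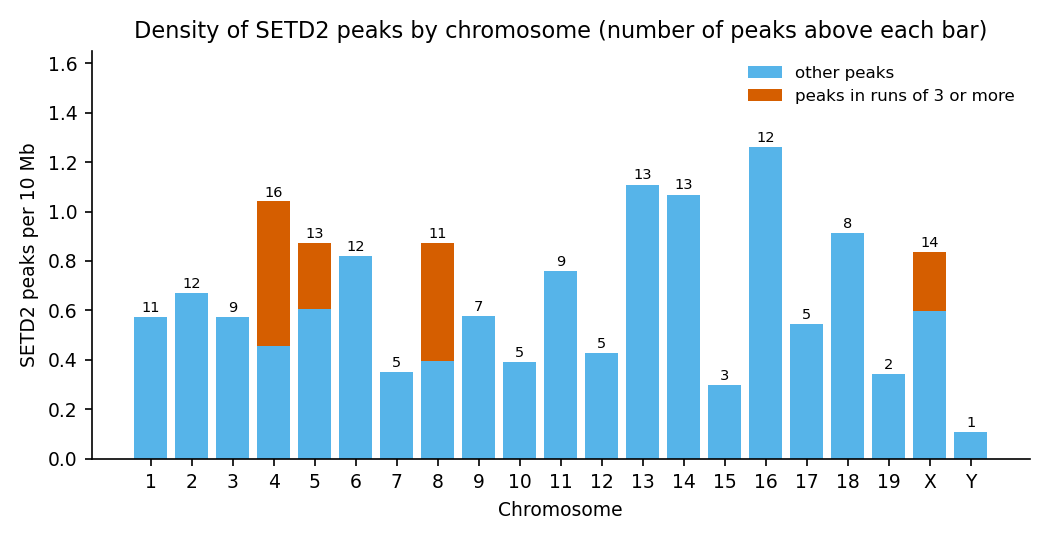
SETD2 peaks per 10 Mb of the span between the outermost annotated genes of each chromosome, with the number of peaks above each bar and the part in runs of 3 or more peaks in a second colour. Chromosome 16 has the highest bar (1.26) without a run, and chromosome 4 (1.04) owes 9 of its 16 peaks to runs.

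The median distance from a SETD2 peak to the nearest H3K36me3 peak was 425 kb (95% interval 306 to 590 kb). No distance for randomly placed regions was computed, so it cannot be said whether this is near or far. Peaks overlapping one numbered 7, those within 10 kb 10 (5.38%, exact interval 2.61 to 9.66) and those within 100 kb 41 (22%, 16.3 to 28.7). The 3 that came within 10 kb without touching were those of the non-coding gene Gm39809 (1.17 kb), of the predicted gene Gm2808 (4.67 kb) and of Snhg14 (4.87 kb). Of the 7 overlapping peaks 4 were in runs. Those of Gm42346, of Zfp978 and Zfp991 and of Gm20946 shared 1292, 442 and 1311 bp with an H3K36me3 peak, and one outside genes on chromosome 8 shared 681 bp. Outside runs, the peak of G630055G22Rik shared 380 bp and was the only one of the 7 with a score of 100 or more. The others outside runs touched no gene: one on chromosome 16 (chr16:3325196-3326364, score 35.1) shared 1081 bp, and one on chromosome 18 (chr18:14102870-14103737, score 30.2), 130 kb from Zfp521, shared 825 bp. The 10 highest-scoring SETD2 peaks stood 85.8 to 2353 kb from the mark, with a median of 647 kb. By quartile of score, from lowest to highest, the median distance was 590, 239, 284 and 490 kb.

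Both kinds of peak were found in 13 protein-coding genes, 20.3% of those with a SETD2 peak and 1.32% of those with an H3K36me3 peak. Of all protein-coding genes 4.51% had an H3K36me3 peak and 0.294% a SETD2 peak. An H3K36me3 peak lay in 3.9% of genes of 10 to 50 kb and in 9.38% of those of 50 to 200 kb. Of genes of 200 kb or more 19.6% had one. In that order, these classes held 18, 29 and 17 of the genes with a SETD2 peak. Among the 13 genes, Gm42346, Zfp993, Rex2, Zfp978 and Zfp991 lie at the runs on chromosome 4. A single SETD2 peak touched both Zfp978 and Zfp991. In 3 of the 13 genes, Gm42346, Zfp978 and Zfp991, the peaks overlapped. In the other 10 they stood apart. The distance was 4.67 kb in Gm2808, 14 kb in Rex2, 27.5 kb in Phc3, 28.9 kb in Sgcd, 40.1 kb in D5Ertd579e and 52.3 kb in Fancc. It was 113 kb in Flt1, 129 kb in Erc1, which organises sites of secretion, 375 kb in Zfp993 and 970 kb in Lrp1b. The control of either list is the one input library, whose own level at these places is not analysed here, so its part in shared peaks was not tested.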

How the data were processed

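The series holds ChIP-seq of intestinal cells with 1 library each for SETD2, H3K36me3 and input, so no comparison has replicates. The authors called each list on 1 ChIP library against input, as the deposited file names state, and the peaks carry the name MACS. CASAVA 1.8 and the build hg19 stand in the submitters' processing notes, but the coordinates fit the mouse build GRCm38. An aligner, a version of the caller and read filters were not given in the sources used here. The deposited score is the authors' own value per peak, with no stated scale. It ranks peaks within a list only, and ranks are not compared between lists. Read numbers are not in the lists, and depth is unknown.

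Peaks, counted from 1, were set against RefSeq gene spans of GRCm38.p6: 49603 genes on chromosomes, after removal of 340 on patch scaffolds (starts below 3 Mb, except on Y). A gene was touched when it shared 1 bp. Start sites and strand came from the RefSeq promoter table (32851 windows). Shares have exact Clopper-Pearson 95% intervals and medians exact order-statistic intervals, both treating peaks as independent. No p-values were computed. Members, gene lists and comparisons were chosen with earlier results of these data known. The 20 gene lists were matched by symbol or synonym, or by a pattern of symbols. Genes were named by rule: any touched gene could be named, with full values for those of the 20 highest-scoring genic peaks, of peaks overlapping the mark and of the lists; of peaks outside genes, the 20 highest-scoring, 3 nearest and 3 farthest; and of all, the 3 widest and 3 narrowest. Role groups were formed after the touched genes were seen. Functions were tested on simulated intervals. Python 3.11.15, pandas 2.3.3 and SciPy 1.17.1 were used. Alternatives were other scores, overlaps, gene sets, merged peaks and autosomes alone.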

Additional observations from a re-analysis of the deposited data

How the results depend on the processing

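Of 49 alternative values, 37 stayed within the interval of the value given above, or within 1.5 times it for counts, and 12 did not. The share of SETD2 peaks that touch a protein-coding gene, and the median width of the highest score class, moved under none of the alternatives run. When each gene was widened by 5 kb on both ends, 53.8% of peaks touched any gene, in place of 45.2%, and 52 non-coding genes were touched in place of 26. Without genes of Gm or Rik symbols 33.3% of peaks touched a gene, and 3 non-coding genes were touched. The median distance of peaks outside genes was then 75.6 kb over 124 peaks, in place of 23.8 kb over 102. To protein-coding genes alone it was also 75.6 kb, over the 124 peaks that touched no such gene. Scores at or above the median left 29 protein-coding and 15 non-coding genes touched, and scores of 100 or more left 6 and 2. Overlaps with H3K36me3 peaks numbered 3 in place of 7 when both lists were limited to scores at or above their medians, and 3 without the peaks in runs, an alternative added after the data were seen. Fewer peaks or fewer genes are part of the construction of these settings. No paired analysis was possible because each antibody has 1 library. The lists hold no read numbers, so what depth limits cannot be stated.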
